A study of Mus musculus with 12 samples.

Results

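Granins are acidic proteins that are packed with peptide hormones into the dense-core secretory granules of endocrine cells and neurons. The genes described here are 9 in number: the chromogranin genes Chga and Chgb, the secretogranin genes Scg2, Scg3 and Scg5, the granin-like precursor genes Vgf and Pcsk1n, the processing enzyme gene Cpe and the calcium sensor gene Scgn. They were chosen by name, not by their measured values, out of 30142 named genes on the array, but with earlier results of these data known. Each of the 9 was matched by 1 row of the array, so no choice between rows had to be made. Cpe encodes an enzyme and Scgn a calcium-binding protein, and neither is a granin in the strict sense.

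RNA from whole mouse pancreas was measured on 12 arrays, with 6 samples in each of 2 genotypes at an age of 6 months. The controls were Pdx1/Cre mice, which express Cre under control of Pdx1 regulatory sequence. The HuR samples had the genotype Pdx1/Cre + Traffic-HuR and so carried, beside the same Cre, a transgene for HuR, the RNA-binding protein encoded by Elavl1. Pdx1 is active in the common progenitors of acinar, duct and endocrine cells of the pancreas, so Cre was not limited to 1 of these cell types. Nothing in the labels ties each array to its own animal, so the p-values measure the spread between these samples, which may be technical. The question was how expression in the pancreas differs when HuR is raised.

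Inside the secretory pathway granins aggregate at mild acidity and in the presence of calcium, which helps to form the granule core, and many are cut into bioactive peptides. Chromogranin A is a common tissue marker of endocrine cells. In the pancreas the endocrine cells lie in the islets, a small part of the tissue that is otherwise mainly acinar. Scg5 encodes 7B2, a chaperone of the prohormone convertase PC2, Pcsk1n encodes proSAAS, an inhibitor of the convertase PC1/3, and Cpe encodes carboxypeptidase E, which trims basic residues from cut prohormones.

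The promoters of chromogranin and secretogranin genes are textbook examples of the cAMP response element, whose full form is TGACGTCA. Whether this element bears on the expression values was not tested. The 120 bases before the start of the 3 genes that hold the element, or its variant TGACGTAA, are shown here from RefSeq (GRCm38.p6). Each is written 5′ to 3′ on the strand of its gene, and capitals mark the element.
Chga: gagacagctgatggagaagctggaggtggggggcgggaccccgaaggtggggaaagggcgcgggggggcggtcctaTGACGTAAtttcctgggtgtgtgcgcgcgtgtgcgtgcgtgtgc
Chgb: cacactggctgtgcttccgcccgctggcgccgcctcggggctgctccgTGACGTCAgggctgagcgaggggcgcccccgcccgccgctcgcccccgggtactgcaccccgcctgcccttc
Scg2: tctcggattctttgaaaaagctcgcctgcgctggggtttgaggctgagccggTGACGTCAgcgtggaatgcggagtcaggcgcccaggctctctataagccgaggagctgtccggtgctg
The Chga stretch is chr12:102554821-102554940 on the plus strand, the Chgb stretch is chr2:132781522-132781641 on the plus strand, and the Scg2 stretch is chr1:79440027-79440146 on the minus strand. The element began 44 bases before the start of Chga, 72 before that of Chgb and 68 before that of Scg2. Promoters of 7 of the 9 genes were in the RefSeq table, and Vgf and Cpe were not matched. In the 250 bases before the start, searched on both strands, TGACGTCA stood in 1.62% and TGACGTAA in 0.477% of 27025 promoters. Neither stood in that window of Scg3, Scg5, Pcsk1n or Scgn.

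Levels below are the deposited log2 values, on which a step of 1 is a 2-fold difference, and each difference is HuR minus control. The level of 1 gene is not compared with that of another, since rows differ in their probes. Rows designed to measure background had a median of 3.75. Elavl1 itself was higher in the HuR samples by 0.24 (SE 0.0755), with 5 of 6 HuR arrays above every control. Across 30142 genes 0 (0%) passed limma at an adjusted p below 0.05, and the smallest adjusted p was 0.437. An unadjusted p below 0.05 was reached by 793 genes that were lower (2.63%) and 864 that were higher (2.87%). Control replicate 2 and HuR replicate 2 stood apart from the other arrays in earlier results on these data. Values without them are given for many results but not for the markers of other cells.

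Chga, the chromogranin that defines endocrine granules, was detected far above background on every array. Its level in the controls had a minimum of 12.34, a median of 14.27 and a maximum of 16.56, and in the HuR samples a minimum of 12.66, a median of 13.67 and a maximum of 14.54. The groups overlapped almost wholly: the 6 HuR arrays lay inside the range of the controls, which was set by control replicates 4 and 2. Control arrays averaged 14.36 ± 1.44 (SD, n = 6) and HuR arrays 13.61 ± 0.73 (SD, n = 6). This is a difference of -0.74 (SE 0.61), or 1.68-fold lower in HuR samples, with a limma adjusted p of 0.932 and p = 0.288 in the two-sided exact permutation test. It was -0.30 (SE 0.50) without control replicate 2 and -1.15 without control replicate 4. Chgb, the second chromogranin, ran from 6.68 over a median of 7.42 to 8.62 in the controls and from 6.53 over 7.10 to 7.86 in the HuR samples. Only HuR replicate 1 was below the lowest control. Its difference was -0.36 (SE 0.33), 1.29-fold lower, with a limma adjusted p of 0.942, and it was -0.13 (SE 0.27) without control replicate 2.

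Scg2, the precursor of secretoneurin, had a control minimum of 9.75, a median of 12.01 and a maximum of 14.68, and a HuR minimum of 9.67, a median of 11.46 and a maximum of 12.51. Control replicates 1, 2 and 3 were higher than every HuR array, while control replicates 4, 5 and 6 lay among the HuR arrays. Its difference was -0.91 (SE 0.87), or 1.88-fold lower, with a 95% interval from -2.81 to 0.99 and a limma adjusted p of 0.946. Leaving out 1 array gave -0.41 without control replicate 2, -0.48 without control replicate 3, -0.59 without HuR replicate 1 and -1.40 without control replicate 4. Over the 12 arrays the level of Scg2 covered a 32.1-fold range.

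Scg3, a granule protein that binds chromogranin A and the cholesterol-rich granule membrane, went from 9.19 over 11.47 to 14.69 in the controls and from 9.80 over 10.85 to 12.24 in the HuR samples. All HuR arrays were inside the control range, which spanned 45.5-fold. The difference was -0.76 (SE 0.80), with a limma adjusted p of 0.957. It was -0.15 (SE 0.63) without control replicate 2 and -1.25 without control replicate 4. Scg5, the PC2 chaperone, went from 8.06 over 8.59 to 9.997 in the controls and from 7.71 over 8.29 to 8.78 in the HuR samples. HuR replicate 1 alone was below all controls. The difference was -0.45 (SE 0.32), 1.36-fold lower, with a limma adjusted p of 0.924, and it was -0.20 (SE 0.24) without control replicate 2.

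Cpe, which finishes the trimming of hormones such as insulin, had control values from 10.02 over a median of 12.42 to 15.06 and HuR values from 10.34 over 11.86 to 12.43. Again the HuR arrays lay within the controls. The control mean was 12.44 ± 1.70 (SD, n = 6) and the HuR mean 11.64 ± 0.84 (SD, n = 6). The difference of -0.80 (SE 0.71) did not pass the test, with a limma adjusted p of 0.942. It was -0.28 (SE 0.58) without control replicate 2 and -1.28 without control replicate 4. Scgn, the calcium sensor secretagogin, had control values from 6.84 over 7.22 to 8.86 and HuR values from 7.07 over 7.16 to 7.53. Control replicate 2 at 8.86 was far above the next control at 7.62, and the sign rests on it. With all arrays the difference was -0.22 (SE 0.29), without control replicate 2 it was 0.060 (SE 0.138), and without control replicate 4 it was -0.34.

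Vgf and Pcsk1n were measured near the floor of the scale. The mean of Vgf over all arrays was close to the median row level of 4.52, with controls from 4.44 over 4.595 to 4.74 and HuR samples from 4.41 over 4.499 to 4.58. Every HuR array was below the control median, at a difference of -0.08 (SE 0.053), or -0.05 without control replicate 4. Pcsk1n had controls from 4.81 over 5.00 to 5.38 and HuR samples from 4.86 over 4.89 to 5.19. Among the HuR arrays replicate 2 stood alone at 5.19. The difference of Pcsk1n was -0.12 (SE 0.097), or -0.05 (SE 0.082) without control replicate 2, with limma adjusted p values of 0.919 for Vgf and 0.937 for Pcsk1n.

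**Figure D1:**
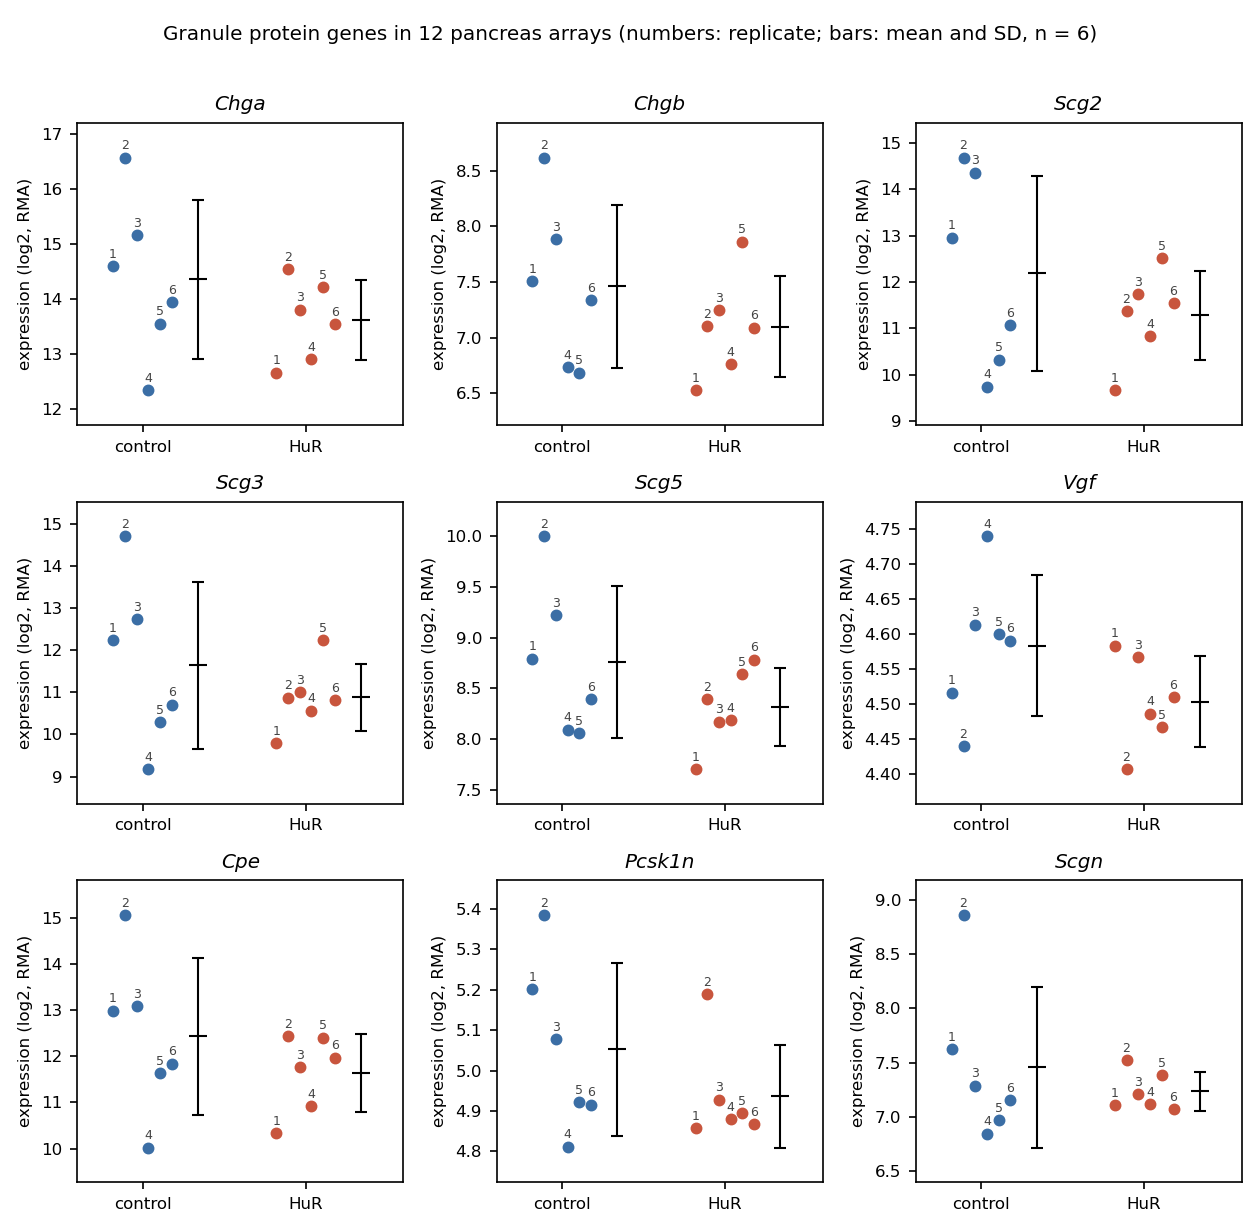
Expression (log2, vertical axis of each panel) of the 9 genes in the 6 control (blue) and 6 HuR (red) arrays, with the replicate number at each point and the mean and SD beside each group. Control replicate 2 is the highest array in 8 of the 9 panels, and the HuR points overlap the controls in every panel.

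Taken over the 9 genes, the mean was lower in HuR samples in 9, where 51.6% of all genes had a lower mean. Their median difference was -0.45, against -0.0033 over all genes. A difference of at least 1.5-fold downward was reached by 4 of the 9 (Chga, Scg2, Scg3 and Cpe) and by 0.209% of all genes, while a 2-fold difference downward was reached by 0 of the 9 and by 0.0133% of all genes. The 1.5-fold count rests on single arrays: it was 0 of 9 without control replicate 2 (0.179% of all genes), 1 without HuR replicate 1, 2 without control replicate 3, and 0 without both arrays numbered 2 (0.189%). None of the 9 passed the limma threshold over all genes, 0 had an unadjusted p under 0.05 where 2.63% of all genes did so in the downward direction, and 0 had every HuR array below every control where 0.133% of all genes did. The 9 genes are not independent of each other, as the next comparison shows, so that 9 lower means do not count as 9 observations. Without control replicate 2 the count of lower means was 8 and the median difference -0.145, and without both arrays numbered 2 these were 8 and -0.144.

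The 9 genes spread widely between arrays. The highest and lowest arrays were more than 4-fold apart in 7 of the 9, against 2.46% of all genes and 4.05% of genes above the median row. The exceptions were Vgf and Pcsk1n. Without control replicate 2 the count was 4 (Chga, Scg2, Scg3 and Cpe), against 2.29% of all genes, and without both arrays numbered 2 it was the same 4, against 1.2%. In 9 of 9 genes the SD was larger among controls than among HuR samples, where 47.6% of all genes had the larger SD in controls. The SD of Scg3 was 1.98 against 0.79, and that of Scgn 0.74 against 0.18. Without both arrays numbered 2 these were 1.45 against 0.89 and 0.30 against 0.13. With both arrays numbered 2 left out the SD was larger among controls in 9 of 9, with Chgb at 0.515 against 0.511. The share of all genes in that setting was not computed. No test of the spread was made. Control replicate 2 was the highest of the 12 arrays in 8 genes, and control replicates 4, 5 and 6 were the 3 lowest controls in 8 genes. In the HuR group replicate 1 was lowest in 7 genes. How often these arrays take these places among all genes was not computed.

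To see whether this spread was shared with other endocrine genes, each of the 9 was set against the mean of 9 islet transcription factor genes on the same array (Pdx1, Nkx6-1, Nkx2-2, Mafa, Pax6, Isl1, Rfx6, Hhex and St18). In whole tissue a smaller share of islet cells and less RNA of a gene per islet cell cannot be told apart. The factor mean was 5.72 ± 0.30 (SD, n = 6) in controls and 5.53 ± 0.10 (SD, n = 6) in HuR samples (two-sided exact permutation test, p = 0.162). It was highest in control replicate 2 at 6.27 and lowest in HuR replicate 1 at 5.39. Rfx6, Isl1 and St18 varied most among controls, with SDs of 0.95, 0.63 and 0.58, so they weigh most in the spread of the factor mean. The control SDs of the other factors ran from 0.081 (Mafa) to 0.26 (Pax6). Hhex had a higher mean in HuR samples, by 0.04, and the other factors a lower one.

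All of the 9 but Vgf followed the factor mean. Over the 12 arrays Pearson's r was 0.95 for Scgn, 0.94 for Cpe, 0.93 for Scg5 and for Chga, 0.92 for Scg3, 0.90 for Chgb, 0.88 for Pcsk1n and 0.84 for Scg2. Spearman's rho of these 8 ran from 0.85 to 0.97. How many of all genes follow the factor mean as closely was not computed. Permutation p values were 1e-05 to 0.00022 for r and 1e-05 to 0.00102 for rho, where 1e-05 is the smallest that 100000 permutations can give, and 4.5e-05 to 0.000248 and 4.5e-05 to 0.00115 after adjustment over the 9 genes. Without control replicate 2 and HuR replicate 1, the arrays farthest from the median of the factor mean, r was still 0.785 to 0.904, with permutation p values up to 0.00837. Vgf went the other way, with r = -0.47 and rho = -0.39, and permutation p values of 0.126 and 0.21. It was measured near the floor and covered only a 1.26-fold range. Vgf was highest in control replicate 4 and lowest in HuR replicate 2, the arrays whose median row was highest (4.60) and lowest (4.42). Whether Vgf follows the scale of the arrays was not tested.

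The same signs of r held inside each genotype, with less precision. Within the 6 controls r of the 8 genes was 0.84 to 0.99, with exact permutation p values of 0.00139 to 0.00972. Within the 6 HuR arrays it was 0.64 to 0.98, with exact permutation p values of 0.00139 to 0.158, and only Chga and Cpe were under 0.05. Vgf had r = -0.86 within controls and -0.79 within HuR samples, both larger in size than over all 12 arrays, with exact permutation p values of 0.0306 and 0.0708. The HuR arrays covered a narrower range of the factor mean. With 15 other islet genes and hormones as the reference, r of the 8 genes over all arrays was 0.85 to 0.97. It was 0.65 to 0.93 without the 2 farthest arrays, 0.91 to 0.99 within controls and 0.49 to 0.93 within HuR samples, where exact permutation p values reached 0.294 and 4 of 8 were under 0.05. This reference holds 3 hormone genes that repeat 1 value on several arrays.

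**Figure D2:**
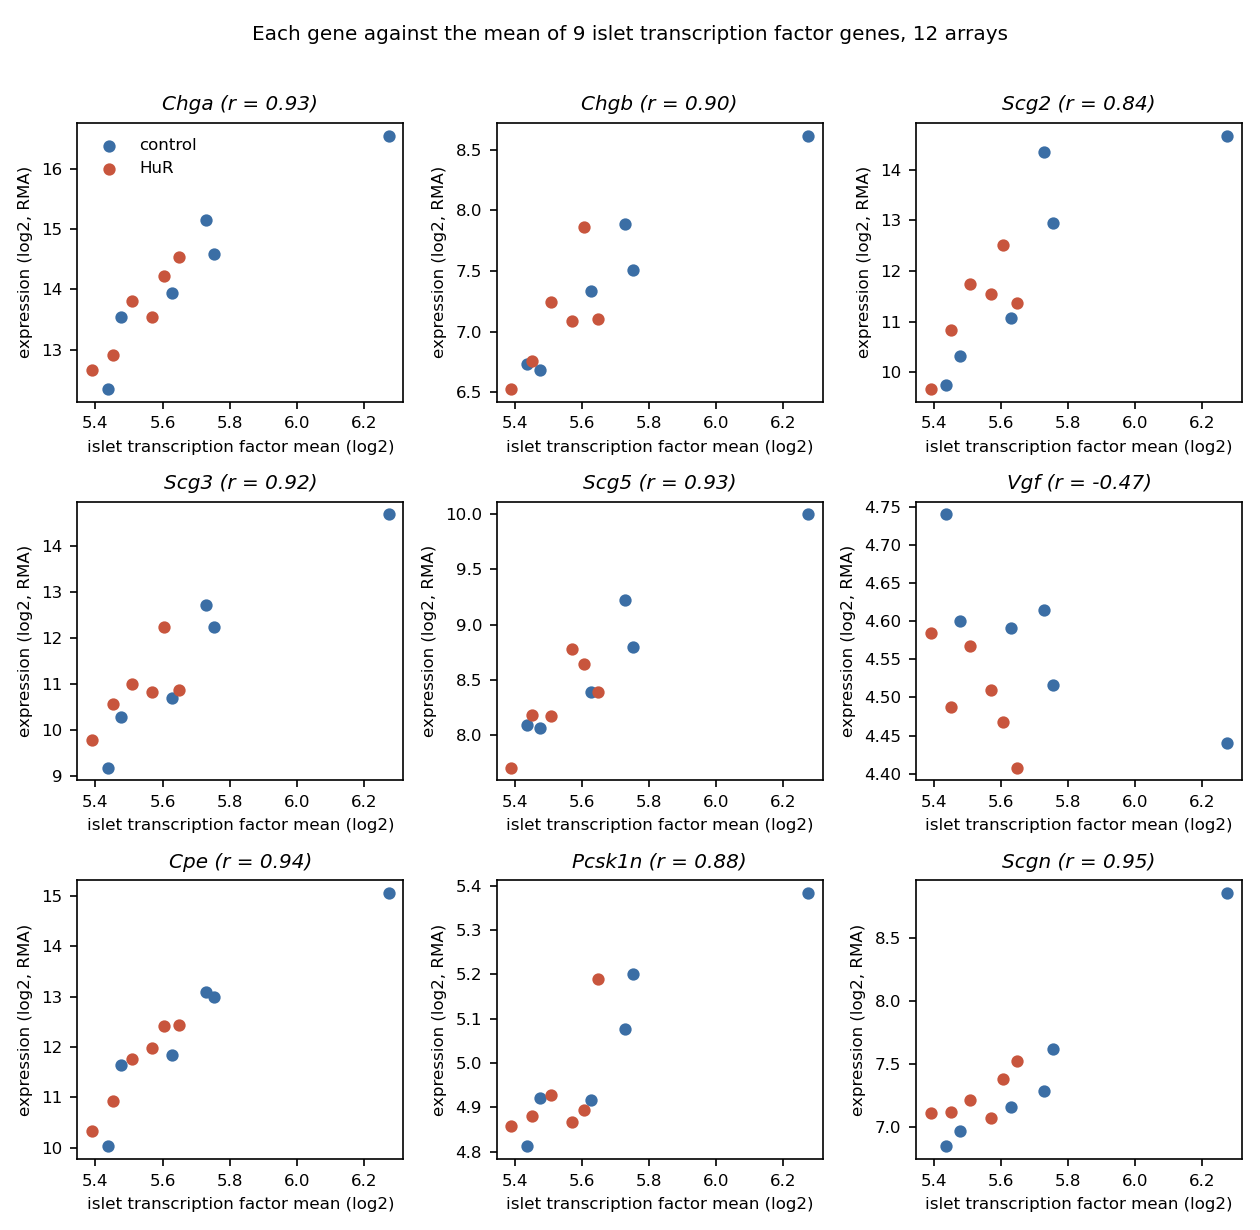
Expression of each of the 9 genes (log2, vertical axes) against the mean of 9 islet transcription factor genes (log2, horizontal axes), 1 point per array, controls in blue and HuR samples in red. In 8 panels the points of both genotypes rise together, with control replicate 2 at the upper right at a factor mean of 6.27, and Vgf falls with r = -0.47.

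The difference between genotypes was then fitted with the factor mean as a covariate. The sign turned in 8 of the 9 genes, and the differences became 0.139 (SE 0.266) for Chga, 0.089 (SE 0.174) for Chgb, 0.220 (SE 0.563) for Scg2, 0.399 (SE 0.367) for Scg3, 0.012 (SE 0.143) for Scg5 and 0.246 (SE 0.293) for Cpe. Pcsk1n stood at 0.011 (SE 0.061) and Scgn at 0.213 (SE 0.088). Vgf kept its sign, at -0.138 (SE 0.043). Scgn and Vgf had an unadjusted limma p under 0.05 there, 0.035 and 0.0083, while their limma adjusted p were 0.501 and 0.409. Of all 30142 genes 1657 had an unadjusted limma p under 0.05 without the covariate and 2771 with it. The factor mean is itself lower in the HuR samples, so that this fit takes out any difference that the granule genes share with the factors.

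**Figure D3:**
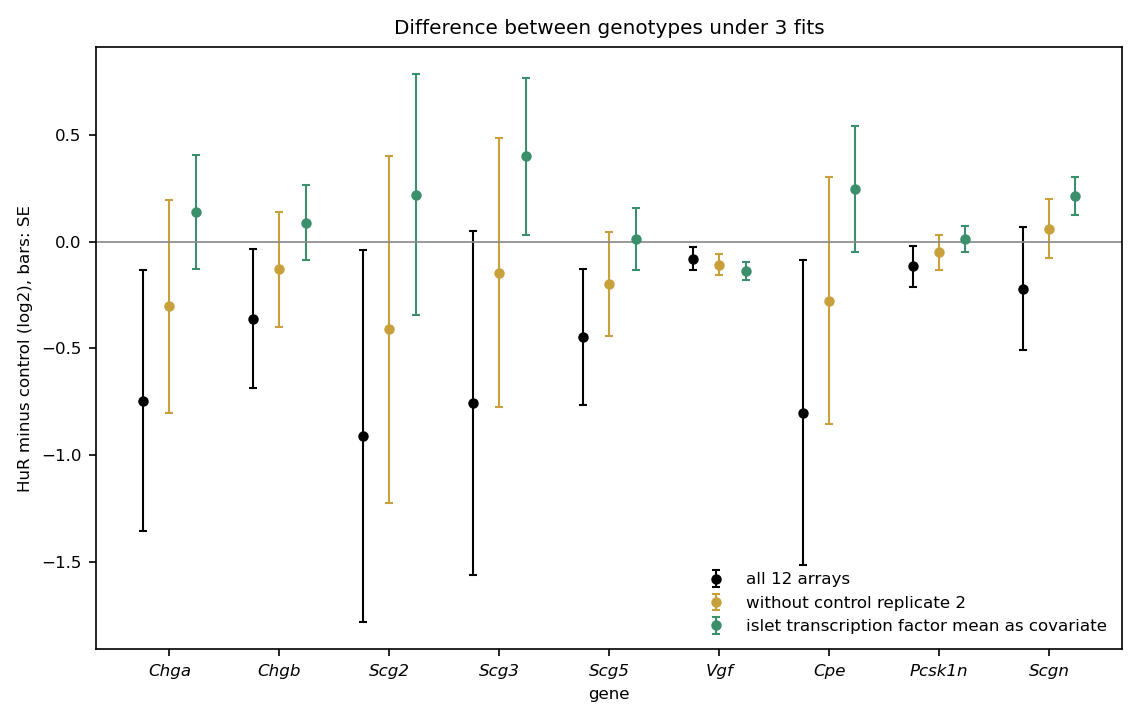
Difference between genotypes (log2, HuR minus control, with its SE) for each gene with all 12 arrays (black), without control replicate 2 (yellow) and with the islet transcription factor mean as a covariate (green). All black points are below 0, and 8 of the 9 green points are above 0.

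The granin genes were also compared pair by pair. Of the 36 pairs, the 28 without Vgf had r from 0.71 to 0.99 over 12 arrays, with a median of 0.906, and rho from 0.60 to 0.98. All 28 passed a permutation test of r after adjustment over the 36 pairs, with adjusted p values from 5.14e-05 to 0.0123, and 27 passed that of rho. The share of all gene pairs that would pass these tests was not computed. The closest pair was Chga and Cpe, with r = 0.987 and rho = 0.958. Without the 2 arrays farthest from the median of the first gene of a pair, r of the 28 was 0.37 to 0.97, and the lowest was that of Chgb with Pcsk1n. Within controls r was 0.77 to 0.99. Within HuR samples it was 0.10 to 0.98, and it was under 0.3 in 5 pairs: Pcsk1n with Chgb, Scg2, Scg3 and Scg5, and Scgn with Scg5. The HuR values of Pcsk1n rest on replicate 2, since the other 5 lay between 4.86 and 4.93. The 8 pairs with Vgf had r from -0.60 to -0.41 and 0 passed for r after adjustment, at permutation p values adjusted to 0.0593 to 0.193. By rho 1 passed, Vgf with Scgn, at an adjusted permutation p of 0.0408. Within controls the Vgf pairs had r from -0.92 to -0.72, and within HuR samples from -0.74 to -0.39.

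**Figure D4:**
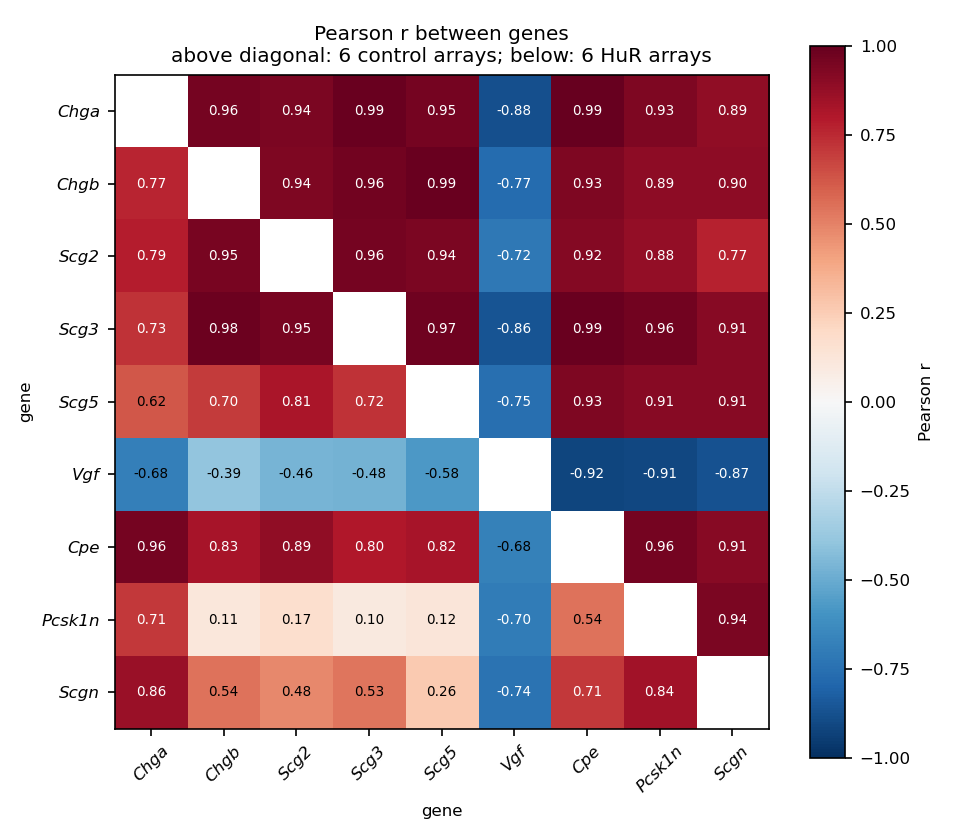
Pearson's r between each pair of the 9 genes, above the diagonal within the 6 control arrays and below it within the 6 HuR arrays, in red for positive and blue for negative values. The control values without Vgf are 0.77 or higher, and the palest HuR cells are the pairs of Pcsk1n with Chgb, Scg2, Scg3 and Scg5, down to 0.10, and of Scgn with Scg5.

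The genes whose pattern was most like each of the 9 were sought among 12159 others, by r over the 12 arrays after the mean of each genotype was subtracted. For Chga they were Cpe (r = 0.986) and the amino acid transporter gene Slc38a4 (0.974), and for Cpe they were Chga and the kinase gene Map3k15 (0.970). Chgb was closest to Syt13 (0.970), a synaptotagmin, and to Syp (0.953), the vesicle protein synaptophysin. Scg2 was closest to Scg3 (0.956) and Stk32a (0.951). Scg3 was closest to Abcc8 (0.974), the sulfonylurea receptor of the beta cell potassium channel, and Syt13 (0.973), while Scg5 was closest to the islet transcription factor gene Rfx6 (0.950) and Syt13 (0.949). Pcsk1n was closest to Slc2a2 (0.961), the beta cell glucose transporter, and Adam22 (0.957). Scgn was closest to Ric8b (0.975) and Gnao1 (0.974), and Vgf to Coasy (0.949) and Gsc (0.945). These are the highest of many values and are given as a description without a test. Over all the genes searched the median r was 0.021 (Scgn) to 0.095 (Chga), and -0.113 for Vgf. An r over 0.9 was found for 0.173% (Pcsk1n) to 0.691% (Scgn) of them, and for 0.0576% with Vgf.

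Enzymes that act beside Cpe on prohormones were measured in 5 genes, of which 4 had a lower mean and 1 a higher one, with a median difference of -0.02. Pam, which amidates peptide ends, went from 9.17 ± 0.47 (SD, n = 6) to 8.71 ± 0.25 (SD, n = 6), which differ by -0.46 (SE 0.20) at a limma adjusted p of 0.904. Without control replicate 2 it was -0.28. Pam was the 1 gene of this list at an unadjusted p under 0.05, and 4 of 6 HuR arrays were below all controls. Pcsk1, the PC1/3 convertase that proSAAS inhibits, differed by -0.34 (SE 0.30), or -0.13 without control replicate 2. Pcsk2, the partner of 7B2, is not analysed here.

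Granule membrane and exocytosis genes were lower in 17 of 21 measured genes and higher in 4, with a median difference of -0.11. An unadjusted p under 0.05 was found in 5 that were lower and 1 that was higher, and 0 passed over all genes with limma. Ptprn2, a phosphatase-like protein of the granule membrane, differed by -0.78 (SE 0.17), and Rab3a, a GTPase that tethers granules to the release site, by -0.18 (SE 0.044). In both, 6 of 6 HuR arrays were below all controls, as in 0.133% of all genes. These are the 2 genes of the list with the smallest p, and their limma adjusted p were 0.778 and 0.878. The others that were lower, named after their values were seen, were the Rab effector genes Rph3al at -0.29 (SE 0.084) and Sytl4 at -0.29 (SE 0.088) and the scaffold gene Pclo at -0.34 (SE 0.11), and the one that was higher was Cadps2 at 0.10 (SE 0.043). Slc30a8, the zinc transporter of insulin granules, differed by -0.73 (SE 0.62), or -0.23 without control replicate 2 and -1.12 without control replicate 4.

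With the islet transcription factor mean in the fit, Ptprn2 differed by -0.763 (SE 0.196) and Rab3a by -0.179 (SE 0.0498), close to their values without it, while Slc30a8 turned to 0.198 (SE 0.224). Whether these genes differ from the granins in their response was not tested. Granule biogenesis genes were lower in 5 of 7 and higher in 2, with a median difference of -0.03 and 0 at an unadjusted p under 0.05 with limma, and the gene with the smallest p was Pick1, at -0.07 (SE 0.047), or -0.05 without HuR replicate 2.

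Islet hormone genes were lower in 6 of 7 measured genes, with a median difference of -0.28 and 0 at an unadjusted p under 0.05 with limma. Sst, the delta cell hormone somatostatin, differed by -0.66 (SE 0.47), or -0.40 without control replicate 2 and -1.06 without HuR replicate 2. Of the 6 lower genes, Ins2, Gcg and Iapp repeated 1 value on 10, 6 and 3 arrays, so the size of their difference is not given. Of the 4 other hormone genes 3 were lower. Among the transcription factors 10 of 13 were lower and 3 higher, with a median of -0.17. Pdx1, whose promoter drives Cre in both genotypes, differed by -0.26 (SE 0.093), and Nkx2-2, a factor of endocrine cell identity, by -0.17 (SE 0.056), and these were the 2 at an unadjusted p under 0.05. Of 8 other islet genes 6 were lower, with a median of -0.62. Glp1r, the receptor of GLP-1, differed by -0.77 (SE 0.13), with 6 of 6 HuR arrays below all controls, as in 0.133% of all genes. It was the 1 gene of that list at an unadjusted p under 0.05. Its limma adjusted p was 0.437, the smallest of all genes. Slc2a2 differed by -0.94 (SE 0.47), or -0.55 without control replicate 2.

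Since granins are also made by nerves and by endocrine cells of the gut, markers of both were looked at. Of 16 nerve genes 9 were lower and 7 higher, with a median of -0.01, and 10 were not above the median row. Of these, Prph, Dbh and Chat had control means of 3.77, 4.12 and 3.72, near the background median of 3.75. Their HuR means were 3.77, 4.10 and 3.75. The 6 above the median row were Th, Stmn2, Gap43, Tubb3, Ret and S100b. Control means of these ran from 4.63 (Tubb3) to 6.25 (Stmn2), and HuR means from 4.66 (S100b) to 6.01 (Stmn2). The list mean ran from 4.42 to 4.59 in controls and from 4.44 to 4.53 in HuR samples. Th, which makes the precursor of catecholamines, was the 1 nerve gene at an unadjusted p under 0.05, at -0.23 (SE 0.066), and Stmn2 differed by -0.24 (SE 0.30), or -0.01 without control replicate 2 and -0.44 without HuR replicate 2. The mean of the 6 nerve genes above the median row was also set against the 9 genes. For the 8 other than Vgf r was 0.68 to 0.89 and rho 0.57 to 0.69. Permutation p values adjusted over the genes were 0.0113 to 0.0142 for r and 0.0531 to 0.0628 for rho. Without the 2 arrays farthest from its median r was 0.30 to 0.73. Stmn2 weighs most in this nerve mean, with an SD of 0.55 over the 12 arrays. The SDs of the others in it ran from 0.118 (Tubb3) to 0.161 (Th). Gut endocrine genes were lower in 5 of 5, by 0.017 to 0.084 in size, and Cck, Sct and Tph1 stood below the median row.

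Markers of other cells moved in both directions between the genotypes, and their part in the values of the 9 genes was not tested. Adipocyte genes were higher in 9 of 9, with a median of 1.04, and their list mean ran from 6.55 to 9.02 in controls and from 7.28 to 10.36 in HuR samples. Macrophage genes were higher in 7 of 8, with a median of 0.84 and list means of 7.50 to 9.32 and 8.11 to 10.72. Among B cell genes 4 of 5 had a higher mean, the median difference was 0.17, and list means were 5.32 to 8.56 and 5.84 to 8.68. In the adipocyte, macrophage and B cell lists the array numbered 2 had the highest mean in each genotype. The next highest adipocyte means were 7.38 in control replicate 3 and 8.79 in HuR replicate 1. Both arrays numbered 2 had the lowest acinar list mean of their genotype, at 12.70 and 12.59. List differences without these arrays were not computed. Acinar genes were lower in 7 of 9, with a median of -0.08, and the other 2, Cela1 and Cpa1, were at the scale's maximum throughout. Tmed6, counted as lower, repeated 1 value on 7 arrays. Duct genes were lower in 5 of 6, with a median of -0.14. Genes of fibroblasts and endothelium were higher in 4 of 7 and lower in 3, with a median of 0.01, and Dcn, counted as higher, repeated 1 value on 4 arrays.

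**Figure D5:**
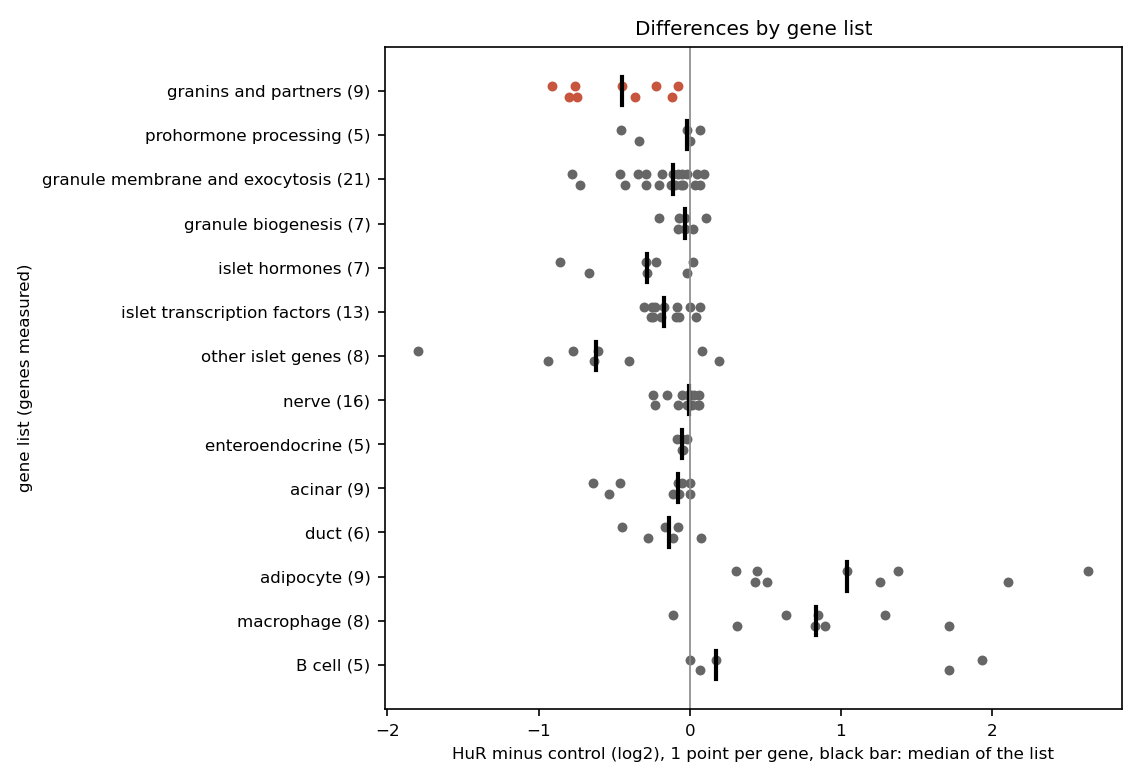
Difference between genotypes (log2, HuR minus control, horizontal axis) for each of the 9 genes and the genes of 13 lists, 1 point per gene. The vertical axis gives each list with the number of genes measured, and black bars are the list medians. The 9 genes (red) are all below 0 with a median of -0.45, and the adipocyte genes are all above 0 with a median of 1.04.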

How the data were processed

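Whole-pancreas RNA of 12 samples was measured on 1 Affymetrix array each. The deposited values are log2 expression values made by the authors with RMA, per the labels, a method that subtracts background, scales arrays to each other and combines probes. Expression Console 1.4 and Transcriptome Analysis Console 3.1, both from Affymetrix, are named in the submitters' processing notes. Settings: not given in the sources used here. Of 72688 rows, 6732 controls were left out. Of the others, 30604 had a single gene symbol in the platform annotation. Symbols were updated through RefSeq (GRCm38.p6), and the row with the highest mean was taken, which gave 30142 genes.

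A linear model per row was fitted by limma 3.58.1 in R 4.3.3, with Benjamini-Hochberg adjustment over genes. Exact tests used all 924 assignments of arrays to groups. The number of arrays limits the precision. No label names a batch. Scripts were tested on simulated data.

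The genes and lists were chosen with earlier results of these data known. The genes to be named were the 9, the 2 genes with the smallest p and the brightest gene of each list. The 2 genes closest in pattern to each of the 9 were added. Genes marked in the text as picked later fall outside this rule. Not every gene that the rule takes is named, chiefly in the granule biogenesis list and the lists of other cells. Prph, Dbh and Chat were named as defining nerve markers. Alternatives were other scalings, a filter on dim rows, the mean of a gene's rows, variance models, array weights, the replicate number as a block, an islet covariate and arrays left out. The nerve reference for correlations and the fold and range counts with arrays left out were added after the data were seen.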

Additional observations from a re-analysis of the deposited data

Results flagged for a closer look

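Among 32 groups of 6 arrays, made of the 9 genes and 7 of the lists in each genotype, 3 held an array farther from its neighbour than chance usually gives, where chance gives about 1 in 20. Pcsk1n stood at 5.19 in HuR replicate 2, against 4.93 in the next HuR array. The mean of the islet transcription factor list was 5.67 in control replicate 2, and 5.31 in the next control. The mean of the nerve list was 4.53 in HuR replicate 3, and 4.47 in the next HuR array.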

How the results depend on the processing

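Over all genes limma called 0 in each of 22 alternatives, and so 0 of the 9, whose adjusted p values were 0.409 to 1. The count of the 9 with a lower mean was 9 in most alternatives, and 8 without control replicate 2 or without both arrays numbered 2. It was 1 with the islet transcription factor mean as a covariate, where 2 (Scgn and Vgf) had an unadjusted p under 0.05. Of all 30142 genes 2771 had such a p with the covariate, against 1657 without it. With single arrays left out the count of lower means was 8 to 9, and the count at an unadjusted p under 0.05 was 0. With that covariate the sign turned to 0.139 for Chga, 0.089 for Chgb, 0.220 for Scg2, 0.399 for Scg3, 0.012 for Scg5, 0.246 for Cpe, 0.011 for Pcsk1n and 0.213 for Scgn, and of other genes to 0.046 for Pcsk1, 0.198 for Slc30a8, 0.334 for Rfx6, itself 1 of the 9 factors, and 0.122 for Stmn2. Scgn turned to 0.060 without control replicate 2 and 0.0019 without both arrays numbered 2, Rfx6 to 0.080 and 0.016, and Cpd, from 0.066, to -0.0053 after a new quantile normalization and -0.0049 without both arrays. With single arrays left out Chga differed by -1.15 to -0.304, Scg2 by -1.40 to -0.411, Scg3 by -1.25 to -0.145 and Cpe by -1.28 to -0.276, each smallest in size without control replicate 2 and largest without control replicate 4. Scgn ran from -0.343 to 0.060 and Rfx6 from -0.450 to 0.080. The cause was not tested. The replicate block called 0 genes and left 9 lower. Same-numbered samples had correlations of their deviations from -0.108 to 0.654, the highest for replicate 2. Control replicates 2, 4 and 5 were most like the HuR array of their own number, and control replicates 1, 3 and 6 were not. Whether the numbers pair the samples cannot be told from these values.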
